A study of Mus musculus with 12 samples.

Results

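Endoplasmic reticulum (ER) folding and stress genes were followed in tumours of mice treated with the peptide minP1, with an antibody against PD-L1, or with both. The set holds 10 genes of the 19921 in the count tables, chosen by symbol as ER chaperones, folding enzymes and stress regulators. They were Hspa5, Hsp90b1, Calr, Canx, Pdia3, Pdia4 and Pdia6, which make 7 chaperones and folding enzymes, and the transcription factors Xbp1, Atf4 and Ddit3. All samples came from subcutaneous Colon26 tumours, a mouse colon carcinoma line, grown from 200000 cells in the flank of BALB/c wild-type mice. The groups were minP1 (a peptide taken from the chromatin protein HMGN1 that stimulates immune cells, 0.08 µg into the peritoneum on day 9), anti-PD-L1 (200 µg of the antibody into the peritoneum on days 4 and 8), minP1 with anti-PD-L1 (called the combination), and control. Each group held 3 mice, and the tumours were taken on day 10. The peptide is named for the combination in the sample titles only, while the treatment label of those samples lists the antibody, and every value of the combination rests on the titles. After enzymatic digestion, tumour cells and dead cells were depleted on 40% Percoll, and the 5′ ends of polyadenylated transcripts of the cells that were left were sequenced. Where values are given for tumours below, they are those of the cells that were left.

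Proteins that enter the ER are folded by chaperones there. Hspa5 (BiP), the Hsp70 of this compartment, and Hsp90b1, its Hsp90, bind unfolded chains, while calreticulin (Calr) and calnexin (Canx) hold glycoproteins by their sugars. Pdia3, Pdia4 and Pdia6 form and exchange disulfide bonds, and Pdia3 works on the glycoproteins that Calr and Canx hold. Calr and Pdia3 also sit together in the complex that loads peptides onto MHC class I molecules. When unfolded protein accumulates, the sensors Ern1, Atf6 and Eif2ak3 raise chaperone transcription and slow translation, and Xbp1, Atf4 and Ddit3 (CHOP) are transcription factors of that response. Xbp1 is switched on by splicing and Atf4 mainly by translation, and neither step is read by a tag of the transcript's 5′ end.

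Many chaperone promoters carry the ER stress response element, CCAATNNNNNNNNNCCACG, to which Atf6 and Xbp1 bind with partner factors. An exact search of both strands in the 250 bases before each RefSeq start (build GRCm38.p6) found this element in 5 of the 10 genes and in 0.113% of all 32851 mouse promoters (37 promoters). Each site is shown with flanking bases on the strand of its gene, and the capitals mark the CCAAT and CCACG parts, or ATTGG and CGTGG where the element is turned round. These are the sites at chr2:34772020-34772048 (plus strand, Hspa5), chr10:86705633-86705661 and chr10:86705528-86705556 (minus strand, Hsp90b1), chr8:84847070-84847098 (minus strand, Calr), chr11:50325795-50325823 (minus strand, Canx) and chr12:17266486-17266514 (plus strand, Pdia6).
Hspa5: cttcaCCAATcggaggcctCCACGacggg
Hsp90b1, farther site: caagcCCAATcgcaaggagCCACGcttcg
Hsp90b1, nearer site: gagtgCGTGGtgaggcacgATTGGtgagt
Calr: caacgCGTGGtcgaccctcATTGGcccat
Canx: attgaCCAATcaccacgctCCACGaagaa
Pdia6: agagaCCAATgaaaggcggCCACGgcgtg
The nearest edge of the element lay 47 bases before the RefSeq start of Hspa5, 80 before that of Pdia6, 89 before that of Hsp90b1, 127 before that of Canx and 144 before that of Calr. The Hspa5 site is upstream of the RefSeq start but inside the longer GENCODE gene.

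Other elements of the stress response were rarer in the set. The core TGACGTG, at which Xbp1 can bind, was found at Hspa5 alone among the 10 genes and in 1.65% of all promoters. ATTGGNCCACG was found in none of the 10 (0.0304% of promoters), and TGATGNAA, an element for Atf4 with C/EBP partners, in none either (3.45% of promoters). No match overlapped another. The promoters of Calr and Pdia3 are printed because the transcripts of these partner proteins moved in opposite directions, and in them the same capitals are used. The Calr sequence (247 bases, chr8:84846935-84847181, minus strand) holds the element, and the Pdia3 sequence (123 bases, chr2:121413652-121413774, plus strand) holds none of the 4 elements. Both are cut where the GENCODE gene starts, so the bases of Pdia3 nearest its RefSeq start are not printed. The search covered them too and found none of the 4 elements there.
Calr: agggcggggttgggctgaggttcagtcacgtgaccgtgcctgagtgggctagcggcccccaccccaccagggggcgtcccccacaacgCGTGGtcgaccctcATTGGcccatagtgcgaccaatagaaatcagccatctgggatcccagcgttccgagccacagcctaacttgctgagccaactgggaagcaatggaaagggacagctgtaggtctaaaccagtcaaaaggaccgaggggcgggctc
Pdia3: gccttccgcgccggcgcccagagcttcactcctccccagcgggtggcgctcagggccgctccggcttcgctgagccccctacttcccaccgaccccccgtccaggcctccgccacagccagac

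Library totals ranged from 133917 to 473273 counts, and the 10 genes took 0.637% to 0.838% of each library. The combination libraries had 133917, 196109 and 176590 counts. Anti-PD-L1 replicate 1 (188008 counts) lay within that range, and all other libraries lay above it. Levels are given as CPM, the count of a gene scaled to a total of 1000000 counts in the 5443 genes that were tested, after TMM scaling (a trimmed mean of M-values), and 1 count was worth 2.24 to 8.54 CPM. Reads of a 5′ tag come from 1 end of a transcript, so levels of different genes are set side by side without a length correction. No molecular identifiers are recorded, so a count is not shown to be 1 transcript, and levels of different genes compare only roughly. Of the 10 genes, 8 passed the filter on low counts, while Xbp1 and Ddit3 did not. On the first principal component of all tested genes, which held 48.8% of the variance, minP1 replicate 2 (-3.21, against -27.9 and -29.8) and anti-PD-L1 replicate 1 (19.1, against -8.01 and -11.8) stood apart from the other libraries of their groups. These libraries also had the highest shares of Bc1 and Lrrc17 counts in their groups (4.17% and 4.42%), shares that ran from 2.49% to 6.32% in the combination and from 1.36% to 2.34% in control. The combination libraries were widely spread on the first principal component as well, at 83.87, 56.45 and 34.47 for replicates 1, 2 and 3.

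Markers of several cell types were among the genes called in the combination against control, a comparison in which 34.8% of all 5443 tested genes passed, 16.5% as higher and 18.3% as lower. Of 12 macrophage markers in the tables, 9 were tested and 5 passed the test as higher in the combination against control, with summed levels of 2369 to 5113 CPM in the combination and 1239 to 1422 CPM in control. Of 10 neutrophil markers, 7 were tested, 6 passed as higher and 1 (Cxcr2) as lower, with sums of 680 to 779 CPM in the combination and 336 to 404 CPM in control. Ly6g was at 0 in both groups and Retnlg at 0 in the combination. The 9 T cell markers summed to 179 to 256 CPM in the combination and 32.9 to 73.9 CPM in control, where Cd4 was at 0, and the 1 tested marker, Thy1, passed as higher. Thy1 gave more of these counts than any other (47 in the combination and 35 in control). Cd2 had 18 and 3 counts, while Cd8a had 1 and 4 and Cd8b1 3 and 7. The summed totals of these libraries were 506616 counts in the combination and 1134230 in control. The 12 fibroblast markers summed to 942 to 1451 CPM in the combination and 1382 to 1872 CPM in control, and of 6 tested 1 was higher (Thy1, also a T cell marker), 3 were lower and 2 had no call. The 5 plasma cell markers summed to 95.9 to 128 CPM in the combination and 76.1 to 80.4 CPM in control, with Jchain at 0 in both groups. Most of their counts were of Sdc1 (46 in the combination and 70 in control, on the same totals), the 1 tested, which had no call. Mzb1 had 0 and 2 counts, Prdm1 1 and 10, and Irf4 4 and 1. The 6 epithelial markers summed to 0 to 59.7 CPM in the combination and 7.31 to 22.4 CPM in control, with none tested. Vil1 had 0 counts in the combination and 2 in control, while Krt18 had 7 and 0. The part of these differences in the results below was not tested, and in such mixed samples a change in the number of cells of a type and a change in RNA per cell cannot be told apart.

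**Figure D1:**
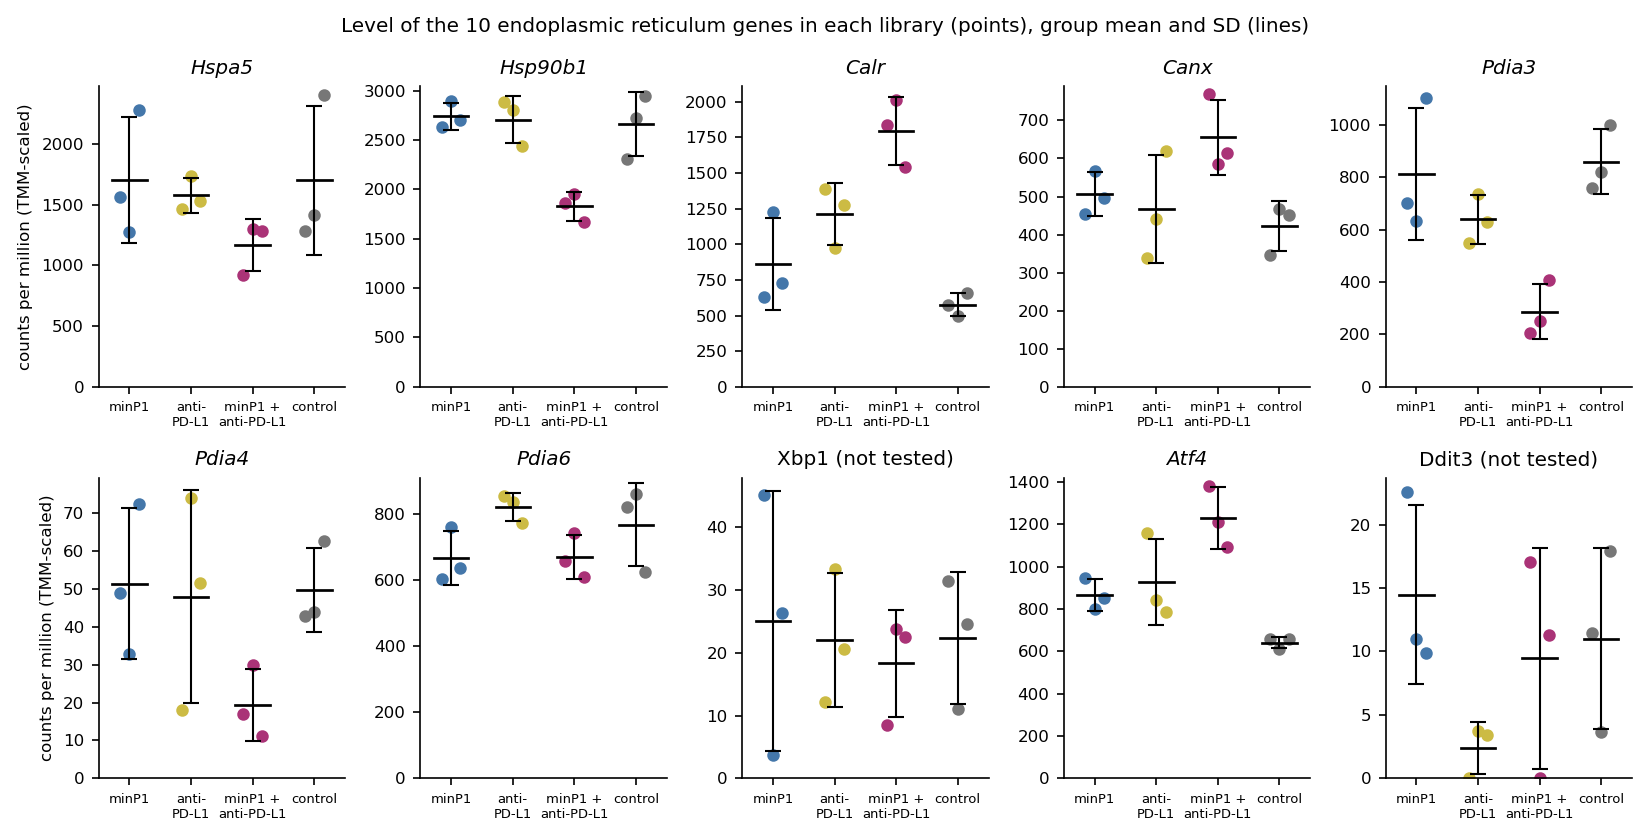
Level of each of the 10 genes in CPM (vertical axes, each from 0) in the 3 libraries (points) of minP1, anti-PD-L1, the combination and control, with the group mean (long bar) and SD (whiskers). Calr, Canx and Atf4 were higher in all 3 combination libraries than in all 3 control libraries, and Pdia3, Pdia4 and Hsp90b1 were lower. Of all tested genes 45.9% did not overlap between these groups.

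Hsp90b1 and Hspa5 were the most abundant of the 10 in control tumours, at 2659 ± 323 and 1698 ± 612 CPM (SD, n = 3 here and below). Pdia3 followed at 861 ± 125 CPM and Pdia6 at 767 ± 127 CPM. Each overlapped its neighbour in this order between libraries, except Hspa5 and Pdia3. Atf4 at 642 ± 26.9 CPM, Calr at 575 ± 81.3 CPM and Canx at 422 ± 66.2 CPM came next. Calr and Canx did not overlap, while Pdia6 and Atf4, and Atf4 and Calr, did. Pdia4 (49.8 ± 11.2 CPM), Xbp1 (22.4 ± 10.4 CPM) and Ddit3 (11.01 ± 7.14 CPM) were scarce, and the levels of Xbp1 and Ddit3 overlapped. Across the series Hsp90b1 ranked first in every library except combination replicate 2, where Calr did. Calr ranked second in the remaining combination libraries, a place that Hspa5 held in the other groups.

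The combination against control asks what both treatments did together. The glycoprotein chaperones Calr and Canx and the transcription factor Atf4 were higher in combination tumours, and the disulfide isomerase Pdia3 and the chaperone Hsp90b1 were lower. Calr stood at 3.11 times its control level and Pdia3 at 0.339 of its own. These 5 were the ones of the 8 tested genes that passed edgeR's quasi-likelihood test (Benjamini-Hochberg adjusted p under 0.05), 3 higher and 2 lower. Of all 5443 tested genes 34.8% passed in this comparison, 16.5% as higher and 18.3% as lower. The libraries of both groups did not overlap for 6 of the 8 genes, beside 45.9% of all tested genes. The median log2 fold change was -0.37 over the 8 genes and -0.06 over all tested genes.

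Calr (chromosome 8, 84841850 to 84846934, minus strand, GRCm38) stood at 1835, 2011 and 1540 CPM in the combination libraries, against 575, 494 and 656 CPM in the control libraries. Every combination library was far above every control library. The log2 fold change was 1.64 ± 0.25 (SE, adjusted p = 4.74e-05, edgeR), with a 95% interval of 1.11 to 2.16. The call held with each of the 12 libraries left out in turn and in all 8 other settings tried, with log2 fold changes of 1.57 to 1.75 over the left-out libraries and 1.14 with the Bc1 and Lrrc17 level as a covariate.

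Canx (chromosome 11, 50293961 to 50325673, minus strand) is the membrane-bound relative of Calr. It was at 768, 585 and 615 CPM in the combination, against 346, 468 and 452 CPM in control. The groups did not overlap, and the log2 fold change was 0.63 ± 0.24 (adjusted p = 0.0472, edgeR). The call was lost without control replicate 1 (adjusted p = 0.106), 2 (0.053) or 3 (0.0781), without combination replicate 1 (0.12) or 3 (0.0623), and without minP1 replicate 1 (0.0581) or anti-PD-L1 replicate 2 (0.0599). Of the 8 other settings 4 kept it, and it was lost without the filter on low counts, with only the compared groups in the fit, in thinned libraries and with the covariate (adjusted p = 0.0511 to 0.192, edgeR).

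Pdia3 (chromosome 2, 121413775 to 121438687, plus strand), the disulfide isomerase that partners Calr and Canx, moved the other way. Its levels were 205, 251 and 406 CPM in the combination, against 761, 819 and 1001 CPM in control. Every combination library was thus below every control library, and the log2 fold change was -1.56 ± 0.28 (adjusted p = 0.000175, edgeR), with a 95% interval of -2.13 to -0.99. The call held with each of the 12 libraries left out, at -1.90 to -1.32, and in the 8 other settings, the smallest change being -0.96 with the Bc1 and Lrrc17 covariate. Pdia3 overlaps Catsper2, which lies on the opposite strand and is also in the tables, and the sources used here do not say whether counting used strand.

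The other isomerases did not pass. Pdia4 (chromosome 6, 47796141 to 47813430, minus strand) had 2, 5 and 2 counts in the combination libraries, against 15, 12 and 28 counts in the control libraries. That is 17.1, 29.8 and 11.3 CPM in the combination, against 42.9, 43.9 and 62.7 CPM in control, without overlap, with a log2 fold change of -1.36 ± 0.55 (adjusted p = 0.0596, edgeR). Pdia6 (chromosome 12, 17266545 to 17284770, plus strand) was at 657, 740 and 609 CPM in the combination, against 819, 859 and 623 CPM in control. Its groups overlapped, and the 95% interval of its log2 fold change ran from -0.64 to 0.26.

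Hsp90b1 (chromosome 10, 86690209 to 86705509, minus strand) was at 1861, 1951 and 1670 CPM in the combination, against 2310, 2720 and 2947 CPM in control. All combination libraries lay below all control libraries, and the log2 fold change was -0.54 ± 0.21 (adjusted p = 0.046, edgeR). The call held without control replicate 1 (adjusted p = 0.0395) and was lost without any other single library, whichever its group, with adjusted p-values of 0.0601 to 0.145. Of the 8 other settings 2 kept it, DESeq2 and the replicate block, and the other 6 lost it (adjusted p = 0.054 to 0.12, edgeR). The gene overlaps the pseudogene 1810014B01Rik on the opposite strand, which is in the tables, so reads of either may be counted for the other. Hspa5 (chromosome 2, 34771970 to 34777547, plus strand) was at 922, 1301 and 1281 CPM in the combination, against 1279, 1415 and 2401 CPM in control. Its groups overlapped, control replicate 3 was far above the other controls, and the log2 fold change of -0.54 ± 0.26 did not pass (adjusted p = 0.114, edgeR). Without control replicate 3 it was -0.21.

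Atf4 (chromosome 15, 80255184 to 80257541, plus strand) was at 1383, 1211 and 1095 CPM in the combination, against 658, 611 and 656 CPM in control. The 3 controls lay close together and well below every combination library. The log2 fold change was 0.93 ± 0.22 (adjusted p = 0.00225, edgeR), and the call held with each of the 12 libraries left out, at 0.91 to 1.02, and in the 8 other settings.

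Xbp1 and Ddit3 were too scarce to test. Xbp1 (chromosome 11, 5520659 to 5525893, plus strand) had 1, 4 and 4 counts in the combination, against 11, 3 and 11 counts in control. For its sums, 9 and 25 counts, the ratio after correction for depth was 0.806, with a 95% exact counting interval of 0.331 to 1.79. Ddit3 (chromosome 10, 127290774 to 127296288, plus strand, the longer of 2 GENCODE entries of this name, overlapped by Mars on the opposite strand) had 2, 0 and 2 counts in the combination, against 4, 1 and 8 counts in control, and a ratio of 0.689 (interval 0.164 to 2.23). Both intervals include 1, and differences inside them were not detectable at this depth. Intervals of this kind cover counting error only.

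**Figure D2:**
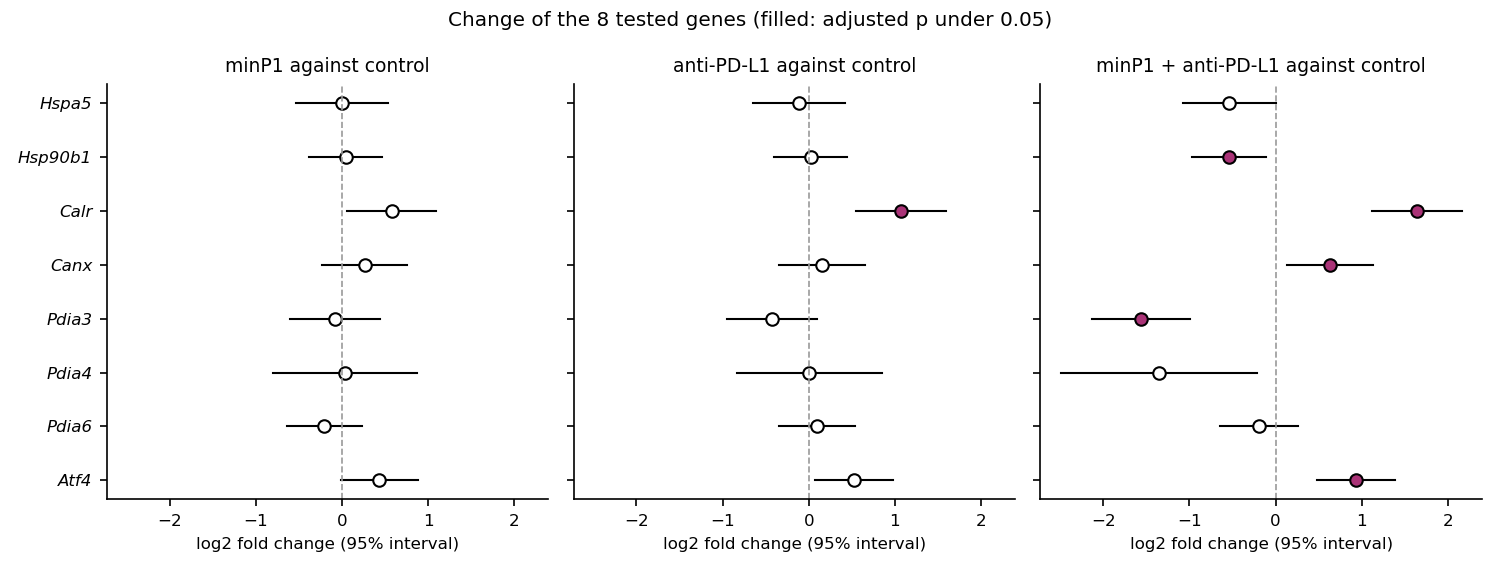
Log2 fold change (horizontal axis) of the 8 tested genes against control for minP1, anti-PD-L1 and the combination, with 95% intervals (lines). Filled points passed at an adjusted p under 0.05, which were none for minP1, Calr for anti-PD-L1, and Calr, Canx, Atf4, Pdia3 and Hsp90b1 for the combination.

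The make-up of the chaperone transcripts differed between the groups while their sum overlapped. The 7 chaperone genes together stood at 6265, 6868 and 6133 CPM in the combination, against 6133, 6819 and 8143 CPM in control. Within that sum Calr took 27.9% ± 2.41 in the combination, 16.3% ± 3.06 in anti-PD-L1, 11.7% ± 4.23 in minP1 and 8.23% ± 1.08 in control. Pdia3 took 4.51% ± 1.84, 8.56% ± 1.19, 10.98% ± 2.61 and 12.2% ± 0.206 in the same order, and Hsp90b1 took 28.5% ± 1.24, 36.2% ± 2.64, 37.5% ± 3.34 and 37.9% ± 1.86. Canx took 10.3% ± 1.89 in the combination and 6.02% ± 0.73 in control. Pdia6 took 10.4% ± 0.426 in the combination and 11.2% ± 3.1 in control, and Pdia4 at most 0.976% in any library.

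The ratio of Calr to Pdia3 counts needs no scaling between libraries. It was 8.96, 8.02 and 3.79 in the combination, 2.53, 1.32 and 2.02 in anti-PD-L1, 0.893, 1.94 and 0.663 in minP1, and 0.756, 0.603 and 0.656 in control. Every control library held fewer Calr than Pdia3 tags, and every combination library held at least 3.79 Calr tags for each Pdia3 tag. Calr and Hsp90b1 tags were nearly equal in number in the combination (0.98 ± 0.0544 Calr per Hsp90b1), against 0.218 ± 0.0341 in control. The ratio of Hsp90b1 to Hspa5 overlapped between the groups, at 1.61 ± 0.369 in the combination and 1.65 ± 0.372 in control. An exact permutation test of 3 against 3 libraries cannot give a p under 0.1, so none is given for these ratios, and since the ratios were read after the gene-wise results they add no independent evidence.

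**Figure D3:**
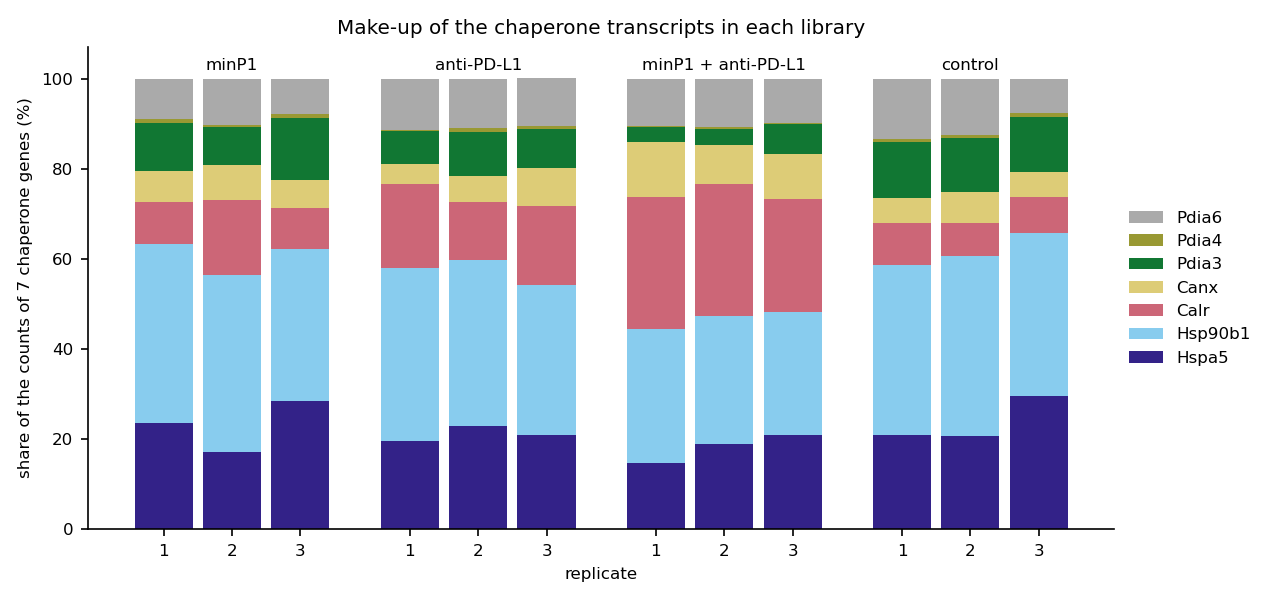
Share of each of the 7 chaperone genes (colours) in their summed counts, in percent (vertical axis), in the 3 replicates of minP1, anti-PD-L1, the combination and control. Calr took 25.1% to 29.3% in the combination libraries and 7.24% to 9.38% in the control libraries, while Pdia3 took 3.27% to 6.62% and 12.01% to 12.4%.

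Anti-PD-L1 alone against control asks what the antibody did without the peptide. Calr was higher, and no other gene of the set passed. Calr was at 1390, 971 and 1274 CPM in anti-PD-L1, against 575, 494 and 656 CPM in control, with a log2 fold change of 1.07 ± 0.25 (adjusted p = 0.0357, edgeR). Of all tested genes 1.12% passed, 0.551% as higher. The call was lost without control replicate 2 (adjusted p = 0.134) or anti-PD-L1 replicate 1 (0.156), 2 (0.0541) or 3 (0.0629), and the value was 0.70 with the Bc1 and Lrrc17 covariate (adjusted p = 0.223).

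Atf4 and Pdia3 did not pass under anti-PD-L1, although the libraries of both groups were apart for each. Atf4 was at 1160, 842 and 785 CPM in anti-PD-L1, against 658, 611 and 656 CPM in control (log2 fold change 0.53 ± 0.22, adjusted p = 0.198, edgeR). Pdia3 was at 550, 738 and 630 CPM in anti-PD-L1, against 761, 819 and 1001 CPM in control (log2 fold change -0.43 ± 0.26, adjusted p = 0.392, edgeR). With Calr these made 3 genes without overlap between the groups, beside 23.5% of all tested genes. Hspa5 (1574 ± 143 CPM), Hsp90b1 (2707 ± 239 CPM), Canx (467 ± 142 CPM), Pdia4 (48.0 ± 28.2 CPM) and Pdia6 (819 ± 42.4 CPM) in anti-PD-L1 tumours lay within 1 SE of no change from control. Ddit3 had 0, 1 and 1 counts in anti-PD-L1, against 4, 1 and 8 counts in control, which gives a ratio of 0.218 (interval 0.0239 to 0.964). Tested without the filter on low counts it did not pass (adjusted p = 0.641, edgeR). Xbp1 summed to 17 counts in anti-PD-L1 and 25 in control (ratio 0.964, interval 0.489 to 1.86).

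MinP1 alone against control asks what the peptide did within a day. None of the 8 tested genes passed, and none of all 5443 did (0%, edgeR). At an unadjusted p under 0.05 there was 1 of the 8, Calr, beside 7.04% of all tested genes, and DESeq2 called none of the 8. Calr was at 628, 1227 and 731 CPM in minP1, against 575, 494 and 656 CPM in control, with a log2 fold change of 0.58 ± 0.25 (adjusted p = 0.656, edgeR). The highest value belonged to replicate 2, the library that stood apart, and without it the log2 fold change was 0.24. Atf4 was at 948, 798 and 853 CPM in minP1, against 658, 611 and 656 CPM in control, and was the only gene of the set whose groups did not overlap, beside 12.4% of all tested genes (log2 fold change 0.43 ± 0.22, adjusted p = 0.731, edgeR). Hspa5 (1704 ± 519 CPM), Hsp90b1 (2742 ± 138 CPM), Pdia3 (814 ± 253 CPM), Pdia4 (51.4 ± 19.9 CPM) and Pdia6 (665 ± 82.1 CPM) in minP1 tumours lay within 1 SE of no change, and Canx (507 ± 56.7 CPM) at 0.26 ± 0.24 did not pass. Xbp1 summed to 21 counts in minP1 and 25 in control (ratio 1.05, interval 0.557 to 1.95), and Ddit3 to 12 and 13 counts (ratio 1.15, interval 0.479 to 2.73).

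Pdia3 separated the combination from each lone treatment. Against anti-PD-L1, which asks what the peptide added to the antibody, Pdia3 alone passed, with 205, 251 and 406 CPM in the combination, against 550, 738 and 630 CPM in anti-PD-L1. The log2 fold change was -1.14 ± 0.28 (adjusted p = 0.015, edgeR), beside 6.94% of all tested genes called, 2.99% higher and 3.95% lower. The call was lost without anti-PD-L1 replicate 2 (adjusted p = 0.0768) or 3 (0.0548), or combination replicate 1 (0.118) or 2 (0.0848). Calr was above every anti-PD-L1 library in all 3 combination libraries but did not pass (0.57 ± 0.25, adjusted p = 0.163, edgeR), nor did Hsp90b1, which was below in all 3 (-0.57 ± 0.21, adjusted p = 0.0963, edgeR). Hspa5 (-0.43 ± 0.26) and Pdia6 (-0.29 ± 0.22) were likewise below in all 3 without passing, so that 5 of 8 genes did not overlap, beside 27.3% of all tested genes.

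Against minP1, which asks what the antibody added to the peptide, Calr was higher and Pdia3 and Hsp90b1 were lower. These were 3 of 8 genes, beside 20% of all tested genes (9.19% higher and 10.8% lower), and 6 of 8 did not overlap, beside 37.5%. Calr was at 1835, 2011 and 1540 CPM in the combination, against 628, 1227 and 731 CPM in minP1 (1.06 ± 0.25, adjusted p = 0.00463, edgeR). Pdia3 was at 205, 251 and 406 CPM in the combination, against 704, 634 and 1103 CPM in minP1 (-1.48 ± 0.28, adjusted p = 0.00072, edgeR). Both calls held with each of the 12 libraries left out. Hsp90b1 was at 1861, 1951 and 1670 CPM in the combination, against 2630, 2896 and 2700 CPM in minP1 (-0.59 ± 0.21, adjusted p = 0.0486, edgeR), a call that held without control replicate 1 (0.0481) and was lost without any other single library (0.0525 to 0.145) and in 4 of the 8 other settings. Atf4 was higher in all 3 combination libraries than in any minP1 library but did not pass (0.50 ± 0.22, adjusted p = 0.101, edgeR). The comparisons with control share the control libraries and those of the combination share its libraries, so their agreement is no separate evidence.

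The interaction asks whether the peptide's effect differed with and without the antibody, as the difference between combination and anti-PD-L1 minus the difference between minP1 and control. None of the 8 genes passed, and none of all tested genes did (0%, edgeR). At an unadjusted p under 0.05 there were 2 of 8, beside 11.02% of all tested genes, and DESeq2 called none of the 8. These were Pdia3, at -1.06 ± 0.37 (adjusted p = 0.302, edgeR), and Hsp90b1, at -0.61 ± 0.29 (adjusted p = 0.448, edgeR). The values of Calr and Atf4 lay within 1 SE of 0, with 95% intervals of -0.72 to 0.70 and -0.66 to 0.61, which leave room for sizeable differences either way.

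Other genes of the ER and its stress response were called in both directions in the combination against control, at shares near those of all tested genes. Of 108 tested genes in 6 lists, 41 (38%) passed by edgeR's quasi-likelihood test, beside 34.8% of all tested genes. By DESeq2 30 of them (27.8%) passed, beside 28% of all. In anti-PD-L1 against control none passed by edgeR, and 19 (17.6%) had an unadjusted p under 0.05, beside 17.9% of all tested genes, while DESeq2 called 3. In minP1 against control none passed by edgeR or DESeq2, and 7 (6.48%) had an unadjusted p under 0.05, beside 7.04% of all. The lists are described for the combination against control without a test of their own, and their counts and medians stand beside 34.8% called (16.5% higher and 18.3% lower) and a median log2 fold change of -0.06 over all tested genes.

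Of 10 stress sensors and upstream kinases, 4 were tested. Mbtps1, the protease that makes the first cut in Atf6, was higher (121 ± 32.1 CPM in the combination and 66.6 ± 9.54 CPM in control, log2 fold change 0.84 ± 0.33, adjusted p = 0.0496, edgeR), a call that DESeq2 did not make, and none was lower. Its partner protease Mbtps2 stood at 0.32 ± 0.58, the interferon-induced kinase Eif2ak2 at -0.55 ± 0.39 and Eif2s1, the translation factor that the stress kinases phosphorylate, at -0.45 ± 0.37. The sensors Ern1, Eif2ak3 and Atf6 did not reach the filter, with 2, 2 and 12 counts in the 506616 of the combination libraries together and 5, 14 and 37 in the 1134230 of the control libraries. The list median was -0.06.

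Of 34 other ER chaperones and folding enzymes, 26 were tested, 4 were higher and 8 lower (46.2% called, beside 34.8% of all tested genes), with a median of -0.37. Serpinh1, the collagen chaperone, stood at 35.6 ± 7.24 CPM in the combination and 190 ± 77.7 CPM in control (-2.41 ± 0.38, adjusted p = 5.44e-05, edgeR). Beside it 3 of 6 tested fibroblast markers were lower, 1 higher and 2 without a call, and all 12 together summed to 942 to 1451 CPM in the combination and 1382 to 1872 CPM in control. Their part was not tested. Prkcsh, a subunit of the glucosidase that trims glycans for Calr and Canx, was lower (-1.78 ± 0.35, adjusted p = 0.000424, edgeR), as was the thioredoxin-like Tmx1 (-2.74 ± 0.54, adjusted p = 0.000507, edgeR). Rcn1, a calcium-binding protein of the ER lumen, was higher, at 351 ± 108 CPM in the combination and 115 ± 7.87 CPM in control (1.60 ± 0.27, adjusted p = 9.95e-05, edgeR).

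ER-associated degradation, which pulls misfolded proteins out for the proteasome, had 19 genes in the tables and 16 tested, of which 2 were higher and 1 lower (18.8% called, beside 34.8%), with a median of 0.16. Vcp, the ATPase that extracts the proteins, was lower (62.9 ± 24.9 CPM in the combination and 190 ± 23.1 CPM in control, -1.58 ± 0.33, adjusted p = 0.000747, edgeR). Its cofactor Nploc4 was higher (1.29 ± 0.33, adjusted p = 0.00455, edgeR), as was Edem1, which marks glycoproteins for removal (1.18 ± 0.30, adjusted p = 0.00401, edgeR). Ufd1, the other cofactor, stood at 1.02 ± 0.43 and did not pass (adjusted p = 0.0701, edgeR). The gene is also listed under its older symbol Ufd1l, so its reads may be split. Ufd1l had 31 counts in the combination and 42 in control, beside 29 and 33 for Ufd1, and had no call either. Both entries count among the 16 tested here and the 108 of all lists.

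Of 31 genes for protein entry into the ER and N-glycosylation, 28 were tested, 5 were higher and 7 lower (42.9% called, beside 34.8%), with a median of -0.30. Serp1, a small protein of the translocon, was higher at 966 ± 70.2 CPM in the combination and 239 ± 100.2 CPM in control (2.01 ± 0.29, adjusted p = 2.46e-05, edgeR). Subunits of the translocon-associated complex diverged, with Ssr3 higher (1587 ± 307 CPM in the combination and 697 ± 160 CPM in control, 1.19 ± 0.23, adjusted p = 0.000423, edgeR) and Ssr2 lower (11.5 ± 11.3 CPM and 77.2 ± 17.5 CPM, -2.54 ± 0.53, adjusted p = 0.000902, edgeR). Spcs2, a signal peptidase subunit, was lower (-1.94 ± 0.40, adjusted p = 0.000796, edgeR).

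Of 34 target genes of Atf4 and Ddit3, 22 were tested, 1 was higher and 5 lower (27.3% called, beside 34.8%), with a median of -0.11. The higher gene was Cebpb, a C/EBP factor that also serves in myeloid cells (637 ± 144 CPM in the combination and 336 ± 17.2 CPM in control, 0.92 ± 0.23, adjusted p = 0.00363, edgeR). Among the lower ones were Sars, a tRNA synthetase (-1.65 ± 0.34, adjusted p = 0.000648, edgeR), Atf5, a factor of the same response (-1.33 ± 0.37, adjusted p = 0.00826, edgeR), and Slc3a2, an amino acid transporter chain (-1.71 ± 0.53, adjusted p = 0.0155, edgeR). Trib3 and Chac1, common markers of this branch, had 5 and 0 counts in the 506616 of the combination libraries together and 7 and 1 in the 1134230 of the control libraries, and were not tested.

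Of 14 heat shock proteins of the cytosol and mitochondria, 12 were tested, 1 was higher and 6 lower (58.3% called, beside 34.8%), with a median of -0.54. Hsp90ab1, the cytosolic relative of Hsp90b1, was at 2839 ± 353 CPM in the combination and 5608 ± 344 CPM in control (-0.98 ± 0.21, adjusted p = 0.00114, edgeR). The mitochondrial pair Hspe1 (-1.19 ± 0.25, adjusted p = 0.001, edgeR) and Hspd1 (-0.83 ± 0.22, adjusted p = 0.00495, edgeR) were lower, as was Hspa1b (-2.33 ± 0.48, adjusted p = 0.000776, edgeR). Hspa1b has a near-identical copy, Hspa1a, and its own counts are uncertain.

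**Figure D4:**
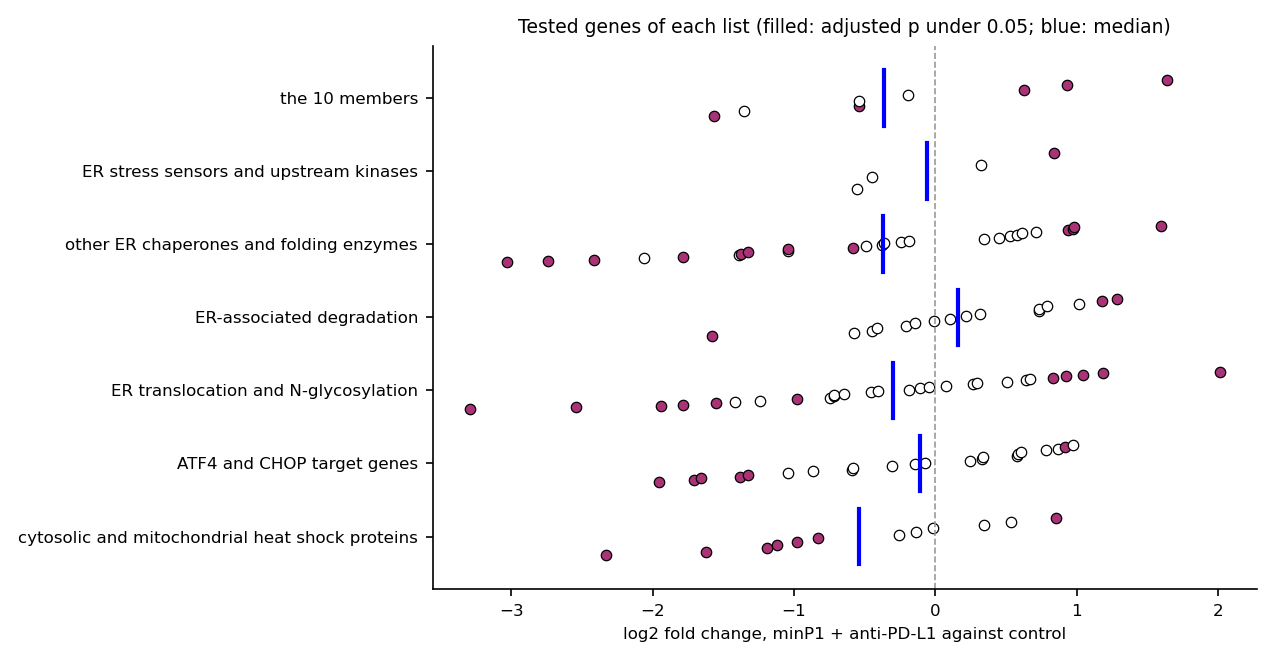
Log2 fold change of the combination against control (horizontal axis) for the tested genes of the set and of 6 related lists (rows). Filled points passed at an adjusted p under 0.05 and blue bars mark the medians, which ran from -0.54 for the cytosolic and mitochondrial heat shock proteins to 0.16 for ER-associated degradation.

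Of 35 genes whose promoter holds the ER stress response element, 25 were in the tables and 9 were tested, 5 of which belong to the set itself. In the combination against control, 2 of the 9 were higher (Calr and Canx), 2 lower (Hsp90b1 and Dnajc3, a cochaperone of Hspa5) and 5 without a call (Hspa5, Pdia6, Creld2, Hnrnpa3 and the ER oxidase Ero1b, named Ero1lb in the tables), beside 34.8% of all tested genes called. Their median log2 fold change was -0.28, beside -0.06 for all tested genes.

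Over the 12 libraries, Pearson's r between the log2 CPM of Hspa5 and that of the other tested genes of the set was 0.79 for Pdia3, 0.716 for Pdia4, 0.624 for Hsp90b1, -0.204 for Pdia6, -0.403 for Canx, -0.498 for Atf4 and -0.521 for Calr. With the group means taken out it was 0.777 for Pdia3, 0.523 for Pdia4, 0.28 for Hsp90b1, -0.626 for Pdia6, -0.0428 for Canx, -0.157 for Atf4 and -0.217 for Calr. Most of these values were thus nearer 0 within groups, except that of Pdia6, which was farther from it. The 5 genes outside the set that were most like Hspa5 were Cd47 (0.904), a surface protein that restrains phagocytosis, Zfp326 (0.878), the RNA-binding Zfp36l1 (0.877), LOC102640133 (0.862) and Fbxo3 (0.846). These correlations describe 12 libraries that share treatment groups and are given without a test.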

How the data were processed

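The authors deposited raw, whole-number counts, 1 table of gene symbols for each mouse. The submitters' processing notes name the mouse build mm10, Bowtie2 2.2.5, DESeq2 and R 3.6.1. How reads were counted, against which annotation and with what use of strand is not given in the sources used here, and no molecular identifiers are recorded. The filterByExpr rule of edgeR 4.0.16 (R 4.3.3) at its defaults kept 5443 of 19921 genes, holding 89.8% to 93.6% of each library. After TMM scaling, the quasi-likelihood test was fitted to all 12 samples with 1 mean per group (common dispersion 0.0506, prior count 0.125), and p-values were adjusted by Benjamini-Hochberg over all tested genes, separately for the 6 comparisons (threshold 0.05). The procedure was also run on simulated counts, drawn with the same common dispersion for every gene. That run checks the code and does not measure the error rate in these data. Named were all 10 genes of the set, up to 4 genes of each list with the smallest p in the combination against control, and the 5 genes most like Hspa5 (log2 of CPM plus 1). Genes with the promoter element, untested sensors and targets, Ufd1l, and markers named with counts, as at 0 or as lower were added after their values were seen. The set and the lists were chosen with earlier results of these data known. Gene positions are from GENCODE M21 (GRCm38) and promoters from RefSeq, which matched all 10 genes; other promoter genes were matched by symbol or RefSeq synonym. DESeq2 1.42.0, other scalings and filters, thinned libraries and left-out libraries were tried as alternatives.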

Additional observations from a re-analysis of the deposited data

How the results depend on the processing

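Beside the values reported, 20 settings were tried: 12 that left out a library each and 8 others, of which the Bc1 and Lrrc17 covariate was chosen after seeing the data. The number of the 10 genes called in the combination against control was 5, and it was 3 without the filter on low counts, with only the compared groups in the fit, and with the covariate. In anti-PD-L1 against control it was 1, and 0 with the covariate and when both libraries that stood apart were left out. In the combination against anti-PD-L1 it was 1, and 2 in the same pair of settings. With a library left out it ran from 3 to 5 in the combination against control, from 0 to 1 in anti-PD-L1 against control, from 0 to 1 in the combination against anti-PD-L1, and from 2 to 3 in the combination against minP1, and stayed at 0 in minP1 against control and in the interaction. Reversed signs among values at least 1 SE from 0 were Hspa5 in the combination against control (0.0163) and Pdia3 in anti-PD-L1 against control (0.0162), both with the covariate and neither called. The cause of these changes was not tested. Of 200 alternatives to the 10 calls, 147 kept the call. Libraries thinned to 133917 counts gave Hspa5 in the combination against control a log2 fold change of -0.69 (adjusted p = 0.0371, edgeR). Same-numbered replicates of different groups correlated over 0.1 in 9 of 18 pairs of libraries (-0.12 to 0.196). Pairs with different numbers ran from -0.278 to 0.283, and a smaller share of them was over 0.1. The sources used here do not say whether the numbers mark mice handled together, and these values do not settle it. With the replicate number as a block, 6 genes were called in the combination against control, Pdia4 being added (adjusted p = 0.0498, edgeR). No other call among the 10 genes changed. Over all tested genes the block raised the calls from 61 to 173 in anti-PD-L1 against control and from 0 to 16 in the interaction. It left them at 0 in minP1 against control. Depth limits Xbp1, Ddit3 and Pdia4 most, and no explanation for any difference was tested.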
